A study of Homo sapiens with 12 samples.

Results

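The mitochondrial ribosome is described here through 77 genes whose symbols begin with MRPL or MRPS followed by a number and, in some, a letter, out of 19516 genes with a symbol in the deposited table. Of these, 49 carry an MRPL symbol, given to proteins of the large subunit, and 28 an MRPS symbol, given to proteins of the small subunit. All 77 passed the filter on low counts, beside 14133 genes tested in all. The symbols follow history more than place: MRPS18A and MRPS30 are known to sit in the large subunit, so that by place the counts are 51 and 26. The groups below follow the symbols.

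The libraries hold messenger RNA of MDA-MB-231 and of HCC1937, established human lines that both derive from triple-negative breast tumours. One group held 3 libraries of untreated MDA-MB-231 cells grown in DMEM (E1 to E3) and a further group 3 libraries of the same line given 140 µg/mL of an aqueous extract of the plant Kalanchoe pinnata (E7 to E9). The other two held untreated HCC1937 cells grown in RPMI 1640 (E25 to E27) and HCC1937 cells given 66 µg/mL of the extract (E31 to E33). All groups had 10% fetal bovine serum and antibiotics, all are described as wild type, and the samples were taken at 72 h, so that line, medium and dose cannot be told apart. No vehicle is named for the controls. Groups were read from the titles, because the cell line field of several samples gives names with other final digits. The labels do not say that the libraries of a group came from separate cultures. The p-values then reflect spread among libraries that could be purely technical. Each line is a single established line, and the extract is a mixture of stated plant and solvent but no stated composition. The labels name poly-T capture of messenger RNA together with a kit for total RNA.

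Mitochondrial ribosomes translate the few proteins that mitochondrial DNA encodes, all of them core parts of the respiratory chain and ATP synthase. Their RNA comes from mitochondrial DNA, while every protein member is encoded in the nucleus, made in the cytosol and imported. Cells with a high demand for respiration are known for high levels of these proteins, and breast tumours have been studied for them.

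Promoter letters introduce the genes. In the RefSeq table (GRCh38.p14, from 250 bases before to 50 after a gene's start), 69 of the 77 members had a promoter. Motifs searched on both strands were CCGGAAG, the core bound by ETS factors such as GABP, AAGATGG, a core of YY1, and GCATGCGC, a core of NRF1, all factors known for control of mitochondrial genes. Among member promoters, 40.6% held the ETS core, against 18.0% of promoters of genes tested and 10.6% of all promoters of the table. The YY1 core was in 33.3% of member promoters, against 7.08% and 6.04%, and the NRF1 core in 8.70%, against 5.05% and 3.21%. Any of the 3 was in 62.3% of member promoters, against 27% of those of genes tested and 18.1% of all. The 120 bases before the start are shown for 4 members. MRPL12 had the largest fold of all members in both lines, with no correction for length and GC content, and has no match in its whole window. MRPL58 and MRPS18A rose in both lines, and MRPS31 fell in HCC1937. Capitals mark the ETS core, which the last 3 share. The stretches lie at chr17:81703247-81703366 on the plus strand, chr17:75012550-75012669 on the plus strand, chr6:43687792-43687911 on the minus strand and chr13:40771191-40771310 on the minus strand, and each is written 5′ to 3′ on its gene's strand.
MRPL12: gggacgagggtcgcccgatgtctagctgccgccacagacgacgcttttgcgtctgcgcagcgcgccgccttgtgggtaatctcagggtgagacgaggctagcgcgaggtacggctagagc
MRPL58: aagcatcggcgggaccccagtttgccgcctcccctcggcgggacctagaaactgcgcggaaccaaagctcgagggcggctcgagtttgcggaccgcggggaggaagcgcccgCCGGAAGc
MRPS18A: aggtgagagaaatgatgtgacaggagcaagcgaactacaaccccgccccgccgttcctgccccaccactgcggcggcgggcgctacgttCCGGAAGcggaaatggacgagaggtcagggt
MRPS31: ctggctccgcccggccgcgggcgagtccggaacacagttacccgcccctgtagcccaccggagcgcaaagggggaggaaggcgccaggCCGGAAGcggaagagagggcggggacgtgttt
The same letters thus stand before genes that moved in opposite directions. Over members, the median log2 fold change with extract was 1.14 with and 0.97 without the ETS core in MDA-MB-231, and 1.1 with and 1.13 without in HCC1937. For the YY1 core the medians were 0.97 with and 1.11 without in MDA-MB-231, and 1.16 with and 1.08 without in HCC1937. A match describes letters only and is neither a bound site nor a cause.

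Library totals ran from 16170300 to 31337300 counts. The labelled lines were checked by markers: all 7 epithelial markers were higher in untreated HCC1937 than in untreated MDA-MB-231, and 4 of 5 tested mesenchymal markers were lower, SPARC being higher. CDH1, the epithelial cadherin, had no reads in any untreated MDA-MB-231 library, while VIM, the mesenchymal filament vimentin, was at 3736 CPM (counts scaled to a fixed library total) in untreated MDA-MB-231 and 13.9 in untreated HCC1937. Other markers were not all absent. Of the receptors that triple-negative tumours lack, ERBB2 was at 51.5, PGR at 2.88 and ESR1 at 0.386 CPM in untreated MDA-MB-231. ESR1 was at 7.19 in untreated HCC1937. Among 3 blood and endothelial markers tested, CD68 was at 308 and 62.8 CPM and PECAM1 at 0.931 and 12.7 in untreated MDA-MB-231 and HCC1937. These are RNA levels, and receptor protein was not measured. Library E7 stood apart from its own group. Its Spearman correlation with E8 and E9 over the 77 members was 0.916 in both cases, while the other pairs of libraries within a group gave 0.990 to 0.997. Genes of mitochondrial DNA took 10.7% of its counts, against 4.63% in E8 and 4.78% in E9. Counts and medians of the gene groups and fold changes of the leading members in MDA-MB-231 are therefore given with and without it. A CPM here is scaled by TMM, which equalises a trimmed mean of log ratios between libraries and assumes that most genes do not change.

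Transcripts of mitochondrial ribosomal proteins took a larger share of the library with extract in both lines. They made up 0.376 to 0.390% of counts in untreated MDA-MB-231 and 0.362 to 0.380% in untreated HCC1937. With extract the share was 0.599 to 0.604% in HCC1937, 0.536% in E8, 0.530% in E9 and 0.754% in E7. No extract library overlapped a control. In bulk RNA, more cells with the transcript and more transcript per cell cannot be told apart, and a change in total RNA would not show.

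**Figure D1:**
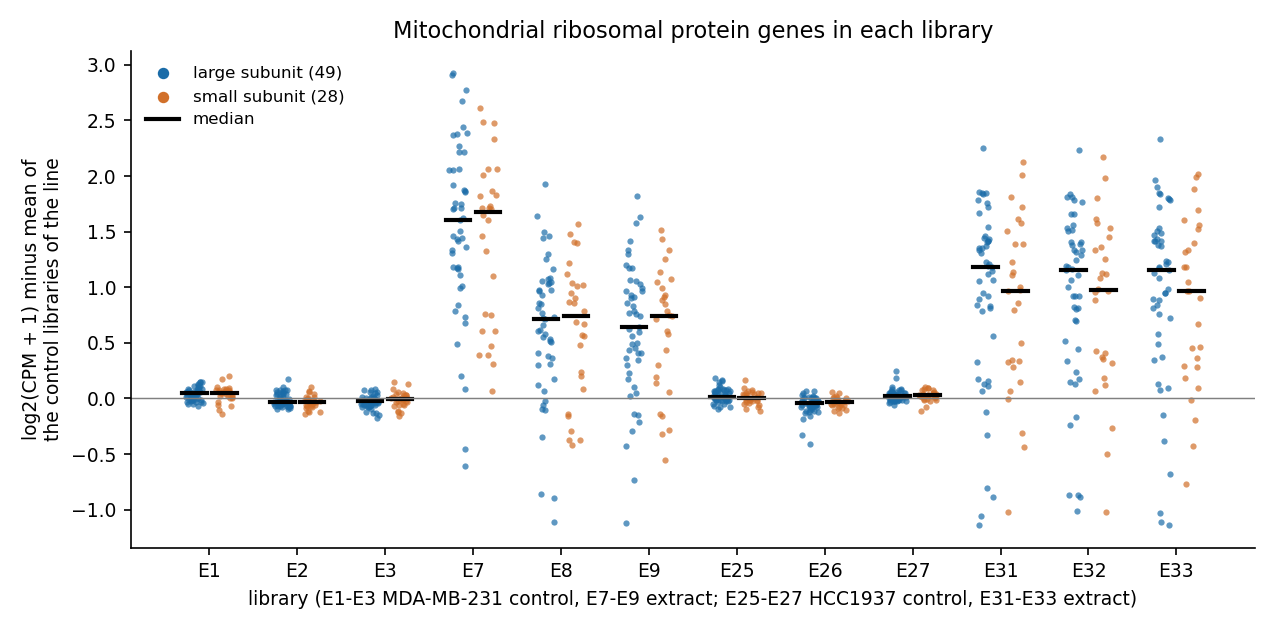
Each point is 1 gene in 1 library, as log2(CPM + 1) minus the mean of the 3 control libraries of its line, with large subunit genes in blue, small subunit genes in orange and black bars for medians. The median of all 77 members was 1.62 in E7, 0.72 in E8, 0.74 in E9 and 1.08 to 1.11 in the HCC1937 extract libraries, while control libraries lay between -0.04 and 0.05.

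In MDA-MB-231, 61 of the 77 members rose with extract, 2 fell and 14 did not pass the test (edgeR, adjusted p under 0.05 over all genes tested), where 33% of all genes tested were called higher and 32.8% lower. The median log2 fold change of the members was 1.09, against 0 for all genes tested. Of the large subunit 40 of 49 rose and 2 fell, with a median of 1.07, and of the small subunit 21 of 28 rose and none fell, with a median of 1.11. Without E7, 61 were higher and 9 lower, beside 37.3% and 37.2% of all genes, and the median was 0.74. In that fit 39 of the large subunit were higher and 4 lower, with a median of 0.69, and 22 of the small subunit higher and 5 lower, with a median of 0.79. Of the 61 rises, 60 were also called without E7, the exception being MRPL53, a protein found in mitochondrial ribosomes but not bacterial ones, whose log2 fold change went from 0.81 (adjusted p = 0.0421) to 0.14 (adjusted p = 0.0718).

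In HCC1937, 55 members rose, 6 fell and 16 did not pass, where 32.7% of all genes tested were called higher and 39.1% lower. The median log2 fold change was 1.13, against -0.16 for all genes tested. Of the large subunit 37 of 49 rose and 4 fell, with a median of 1.18, and of the small subunit 18 of 28 rose and 2 fell, with a median of 1.00. Library by library, all extract values lay above all control values in 63 members and below in 9 in HCC1937, and in 62 and 2 in MDA-MB-231. Over all genes tested these shares were 38.3% and 43.8% in HCC1937 and 32.5% and 35.2% in MDA-MB-231.

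The calls in the 2 lines, which share no samples, met in most members. With all libraries in the fit, 55 were called higher in both, 2 lower in both and none in opposite directions, beside 24.3%, 25.3% and 3.9% of all genes tested. These 55 are 55 of 61 rises in MDA-MB-231 and all 55 in HCC1937. Without E7, 61 were higher in both, 6 lower in both and 2 opposite, beside 28.4%, 28.4% and 7.8% of all genes. The opposite pair, lower in MDA-MB-231 and higher in HCC1937, was MRPS30, at -0.13 (adjusted p = 0.0446) and 0.43 (adjusted p = 5.49e-08), and MRPS25, named after its values were seen, at -0.48 (adjusted p = 1.13e-08) and 0.16 (adjusted p = 0.00462). With E7, 6 members were called higher in MDA-MB-231 and did not pass in HCC1937: MRPL23, MRPL35, MRPL47, MRPS14, MRPS18C and MRPS21, of which MRPL35, MRPL47 and MRPS14 were named after their values were seen. MRPL1, MRPL50, MRPS31 and MRPS35 were called lower in HCC1937 and did not pass in MDA-MB-231. Neither group of genes stood without E7: the 6 were then higher in both lines and the 4 lower in both.

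**Figure D2:**
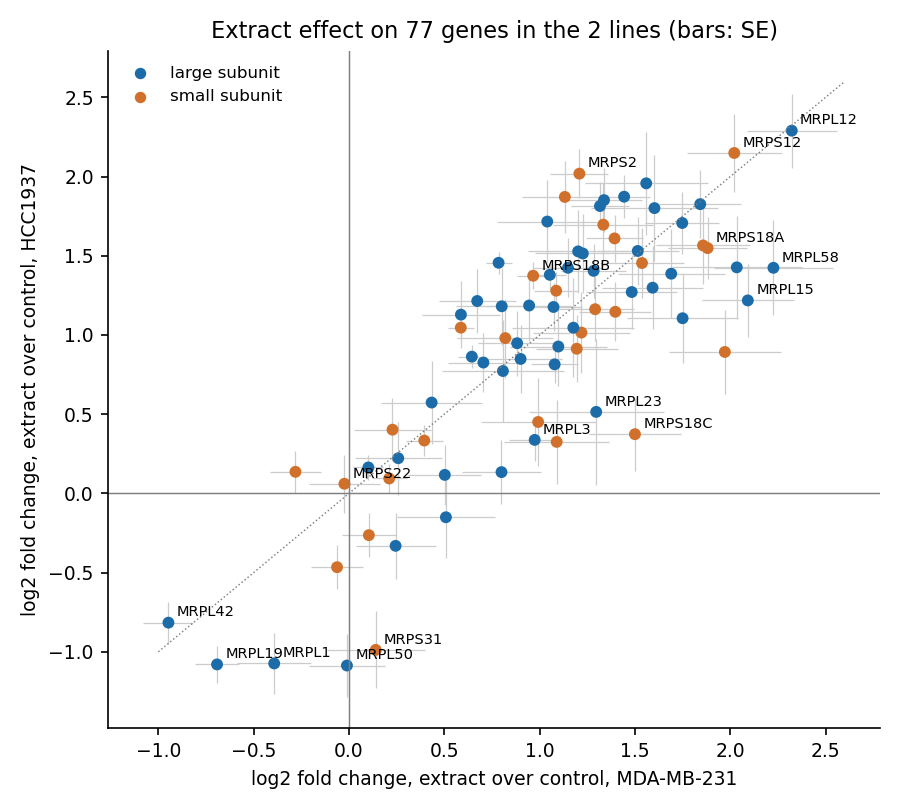
Log2 fold change of extract over control for each member in MDA-MB-231 (x axis) and HCC1937 (y axis), with SE bars and the dotted line of equal effects. Most points lie in the upper right, MRPL12 at 2.32 and 2.29 is the farthest out, and MRPL19 and MRPL42 lie below 0 on both axes.

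With no correction for length and GC content, the large subunit held the largest rise. MRPL12, the stalk protein that recruits translation factors and has also been reported to bind the mitochondrial RNA polymerase, was at 70.1, 70.4 and 66.6 CPM in untreated MDA-MB-231 and at 526, 265 and 246 in E7, E8 and E9. In HCC1937 it was at 63.6, 62.9 and 66.1 CPM without and 310.4, 305 and 327 with extract. All 6 extract libraries lay far above all 6 controls, and E7 was the highest of all. The log2 fold change was 2.32 ± 0.24 (SE) in MDA-MB-231 (adjusted p = 4.01e-06), 1.90 without E7, and 2.29 ± 0.23 in HCC1937 (adjusted p = 3.27e-06). Its partners at the stalk base rose less. MRPL10 had log2 fold changes of 1.05 in MDA-MB-231, 0.99 without E7, and 1.38 in HCC1937. MRPL11 had 1.2, 0.69 and 1.53 in the same order. All of these were called higher.

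MRPL58, a peptidyl-tRNA hydrolase that frees stalled chains and is also built into the large subunit, was at 17.7, 15.8 and 17.4 CPM in untreated MDA-MB-231 and 135, 49.6 and 54.6 in E7, E8 and E9. In HCC1937 the values were 30.6, 26.8 and 30.5 CPM without and 77.3, 77.9 and 80.6 with extract. Extract and control libraries did not overlap in either line, and E7 was the highest of all 12 libraries. The log2 fold change was 2.23 ± 0.31 (SE) in MDA-MB-231 (adjusted p = 6.09e-05), 1.62 without E7, and 1.42 ± 0.30 in HCC1937 (adjusted p = 0.00112).

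Other large subunit rises in MDA-MB-231 among the 8 largest were MRPL15 and MRPL55. MRPL15 had a log2 fold change of 2.09, 1.65 without E7, and 1.22 in HCC1937. MRPL55 had 2.03, 1.34 without E7, and 1.43 in HCC1937. In HCC1937 the large subunit gave MRPL54 at 1.96, MRPL4, which lines the exit tunnel, at 1.87, MRPL28 at 1.85 and MRPL2, a protein near the peptidyl transferase centre, at 1.83. Without E7 these 4 were at 0.95, 1.26, 0.99 and 1.46 in MDA-MB-231. MRPL41, once studied as a growth suppressor, had 1.6 in MDA-MB-231, 0.94 without E7, and 1.80 in HCC1937. MRPL36, the counterpart of a small bacterial zinc-binding protein, had 1.69, 1.14 and 1.39. MRPL44, which has a ribonuclease III fold, had 0.70, 0.39 and 0.83. Every value of these 9 genes passed the test in the fits with and without E7. With an offset for length and GC content, described further on, MRPL36 in HCC1937 was at 0.092 (adjusted p = 0.245) and MRPL55 at 0.31 (adjusted p = 0.148), and neither passed.

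Both shared falls were in the large subunit. MRPL19 was at 124, 120.3 and 130.3 CPM in untreated MDA-MB-231 and 90.7, 66.6 and 74.7 in E7, E8 and E9, and at 39.1, 42.9 and 41.0 without and 18.1, 21.7 and 18.4 with extract in HCC1937. No extract library reached a control of its line, and E7 was the nearest to the controls. The log2 fold change was -0.69 ± 0.12 (SE) in MDA-MB-231 (adjusted p = 0.00023), -0.82 without E7, and -1.08 ± 0.12 in HCC1937 (adjusted p = 5.79e-06). MRPL42, a mitochondria-specific protein, was at 78.6, 84.4 and 80.8 CPM in untreated MDA-MB-231 and 52.9, 37.1 and 36.9 in E7, E8 and E9, and its log2 fold change was -0.95 ± 0.13 (adjusted p = 5.35e-05). Without E7 it was -1.13, and in HCC1937 -0.82 ± 0.13 (adjusted p = 0.000158). MRPL1, a protein of the mobile L1 stalk, fell in HCC1937, from 14.5, 14.9 and 14.8 CPM to 7.49, 6.79 and 6.71, at a log2 fold change of -1.07 (adjusted p = 0.000376). In MDA-MB-231 it was at -0.39 (adjusted p = 0.0933) and, without E7, at -0.68 (adjusted p = 1.83e-05).

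Without the offset the small subunit was led by MRPS12, the protein at the decoding centre that bears on translation accuracy. It was at 31.4, 26.7 and 25.2 CPM in untreated MDA-MB-231 and 174, 84.1 and 80.8 in E7, E8 and E9, and at 24.5, 25.2 and 27 without and 115, 119 and 107 with extract in HCC1937. Extract and control libraries were well apart in both lines. The log2 fold change was 2.02 ± 0.25 (SE) in MDA-MB-231 (adjusted p = 2.08e-05), 1.58 without E7, and 2.15 ± 0.25 in HCC1937 (adjusted p = 9.37e-06). MRPS17 and MRPS34 were among the 8 largest rises in MDA-MB-231. MRPS17 had 1.97, 1.48 without E7, and 0.89 in HCC1937. MRPS34, a mitochondria-specific protein, had 1.86, 1.39 and 1.57. MRPS6 had 1.87 in HCC1937, 1.13 in MDA-MB-231 and 0.72 without E7. MRPS16, a conserved protein tied to inherited respiratory disease, had 1.29 in MDA-MB-231, 0.92 without E7, and 1.16 in HCC1937. All of these passed the test. MRPS22, also tied to inherited disease, did not pass in either line, at log2 -0.024 in MDA-MB-231 (adjusted p = 0.931) and at 0.061 in HCC1937 (adjusted p = 0.785), and was called lower in MDA-MB-231 without E7, at -0.35. MRPS35 fell in HCC1937, from 49.3, 49.8 and 52.4 CPM to 37.0, 35.5 and 37.2, at -0.47 (adjusted p = 0.00990), but with the length and GC offset it was at 0.087 and did not pass (adjusted p = 0.151).

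The 3 MRPS18 genes are paralogs with different places: MRPS18B and MRPS18C proteins sit in the small subunit and MRPS18A in the large. MRPS18A was at 14.1, 12.9 and 13.1 CPM in untreated MDA-MB-231 and 71.6, 39.1 and 37.9 in E7, E8 and E9, and at 31.9, 30.7 and 30.9 without and 94.9, 87.0 and 91.7 with extract in HCC1937. It rose in both lines, by log2 1.88 in MDA-MB-231, 1.53 without E7, and 1.55 in HCC1937. The difference of the effects, HCC1937 minus MDA-MB-231, was -0.33 (adjusted p = 0.402). MRPS18B was at 44.4, 47.1 and 48.7 CPM and then 101, 85.3 and 87.4 in MDA-MB-231, and at 74.8, 69.1 and 71.5 and then 189.8, 186 and 183 in HCC1937. It rose in both lines, by log2 0.97 in MDA-MB-231, 0.89 without E7, and 1.37 in HCC1937, with a difference of 0.41 ± 0.12 (SE, adjusted p = 0.0207). MRPS18C was at 15.2, 13.1 and 15.5 CPM and then 64.0, 30.9 and 29.9 in MDA-MB-231, and at 45.7, 45.5 and 47.1 and then 58.2, 61.4 and 59.6 in HCC1937. It rose in MDA-MB-231, by log2 1.5, and 1.06 without E7, while its 0.37 in HCC1937 did not pass with all libraries in the fit (adjusted p = 0.164). In HCC1937 it was called higher without E7, at 0.40 (adjusted p = 3.88e-07), and with the length and GC offset, at 1.22 (adjusted p = 1.54e-07). The difference was -1.13 ± 0.33 (adjusted p = 0.0227) and -0.66 without E7 (adjusted p = 1.42e-06). MRPS18A and MRPS18B thus rose in both lines, and without the offset MRPS18B and MRPS18C differed between the lines in opposite directions. With the offset and all libraries the difference was -0.59 for MRPS18A (edgeR adjusted p = 9.60e-05) and -0.49 for MRPS18C (adjusted p = 0.0103). For MRPS18B it was then 0.24 and did not pass (adjusted p = 0.119). Which of the 3 differed between the lines thus depended on the fit. MRPS30, the other large subunit protein with a small subunit symbol, did not pass in either line, at 0.23 and 0.40, and without E7 it was called lower in MDA-MB-231, at -0.13.

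**Figure D3:**
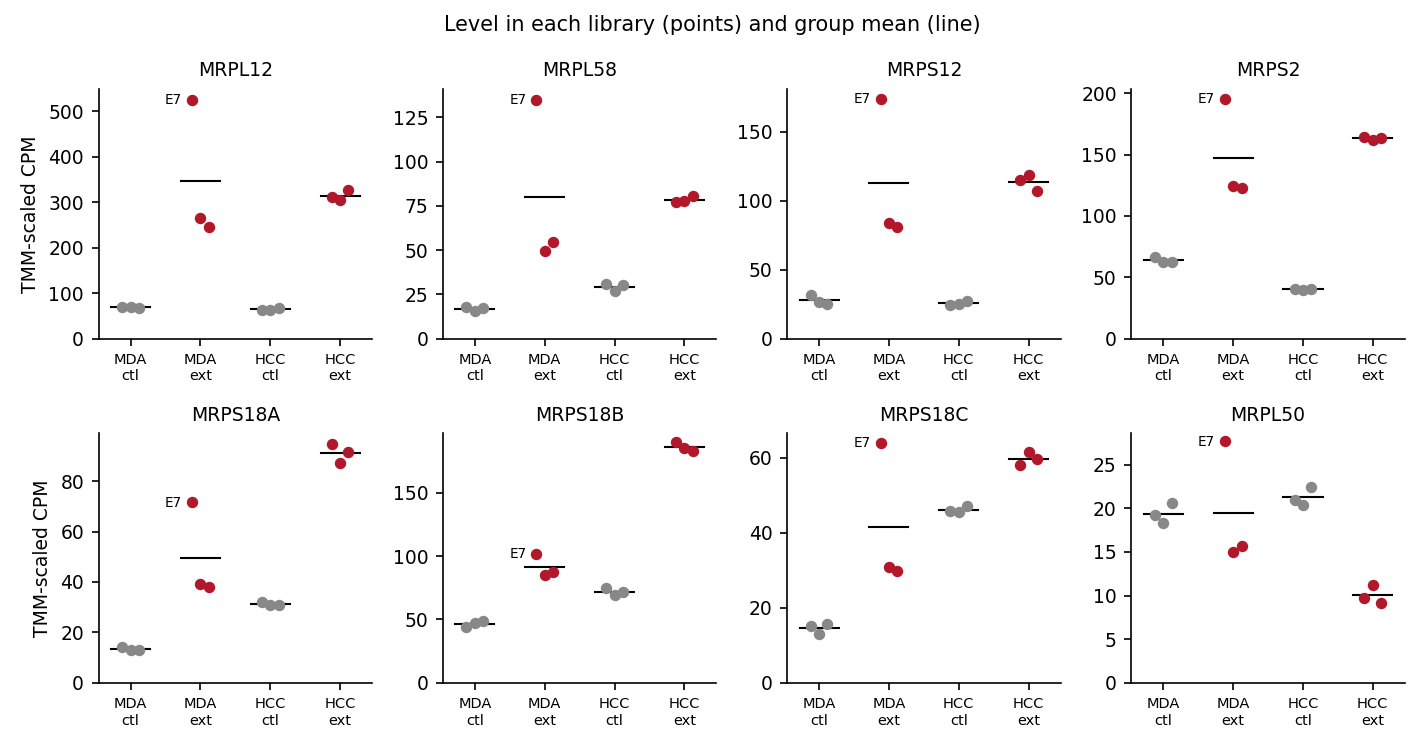
TMM-scaled CPM of 8 members in each library (points) with group means (lines), for MDA-MB-231 and HCC1937 control (ctl) and extract (ext). E7 is marked and is the highest MDA-MB-231 extract library in all 8, and MRPL50 is the member shown whose HCC1937 extract libraries lie below the controls.

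The effect of the extract differed between the lines in 8 members, 4 with a higher effect in HCC1937 and 4 with a lower one, where 11.5% of all genes tested were called higher and 20.6% lower. The 4 higher were MRPS2, MRPL49, MRPS27 and MRPS18B. MRPS2, a conserved small subunit protein, was at 66.6, 62.4 and 62.2 CPM and then 196, 124 and 123 in MDA-MB-231, and at 40.7, 39.4 and 40.7 and then 165, 162 and 163 in HCC1937. It was lower in HCC1937 without extract and rose in both lines, with a difference of 0.81 ± 0.21 (SE, adjusted p = 0.0127). MRPL49, a mitochondria-specific protein, was at 56.1, 52.5 and 53.1 CPM and then 90.3, 95.6 and 92.6 in MDA-MB-231, and at 97.2, 98.3 and 93.6 and then 267, 254 and 271 in HCC1937, with a difference of 0.67 (adjusted p = 0.00033). It was the single member in which E7 was not the highest of the 3 extract libraries. MRPS27, a pentatricopeptide repeat protein that binds RNA, went from 99.9, 97.8 and 97.9 CPM to 150.4, 146 and 148 in MDA-MB-231 and from 49.1, 49.3 and 50.7 to 101, 109 and 98.1 in HCC1937, with a difference of 0.46 (adjusted p = 0.00378).

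The 4 with a lower effect in HCC1937 were MRPS31, MRPS18C, MRPL50 and MRPL3. MRPS31, a mitochondria-specific protein, was at 10.4, 8.87 and 9.99 CPM and then 17.1, 7.25 and 8.59 in MDA-MB-231, where groups overlapped, and at 22.7, 25 and 26.2 and then 11.6, 11.6 and 14 in HCC1937, where they did not. The difference was -1.13 ± 0.35 (SE, adjusted p = 0.0296). MRPL50, also mitochondria-specific, was at 19.2, 18.3 and 20.6 CPM and then 27.7, 15.0 and 15.7 in MDA-MB-231, with E7 above and E8 and E9 below the controls, and at 20.9, 20.4 and 22.4 and then 9.71, 11.2 and 9.13 in HCC1937. The difference was -1.08 ± 0.28 (adjusted p = 0.0123). MRPL3, a protein near the peptidyl transferase centre, rose in both lines, by log2 0.97 in MDA-MB-231, 0.77 without E7, and 0.34 in HCC1937, with a difference of -0.64 ± 0.19 (adjusted p = 0.0217). Each of the 8 was called in the same direction without E7. In that fit, however, 49 members had a higher effect in HCC1937 and 8 a lower one, beside 24.7% and 33.3% of all genes tested, and the median difference was 0.35 in place of -0.03. So the number of differences between the lines rested on E7.

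E7 itself carried the members higher than its group. In 76 of the 77 members it was the highest of the 3 MDA-MB-231 extract libraries, which held for 42.5% of all genes tested. The median ratio of E7 to the mean of E8 and E9 was 1.90-fold over members and 0.99-fold over all genes tested, at 1.91-fold for the large and 1.88-fold for the small subunit. The median coefficient of variation of a member over the 3 libraries was 40.7% with E7 and 2.87% without, against 3.34 to 4.8% in the other 3 groups. MRPL55 was the farthest up, at 2.83-fold. What set E7 apart was not tested.

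**Figure D4:**
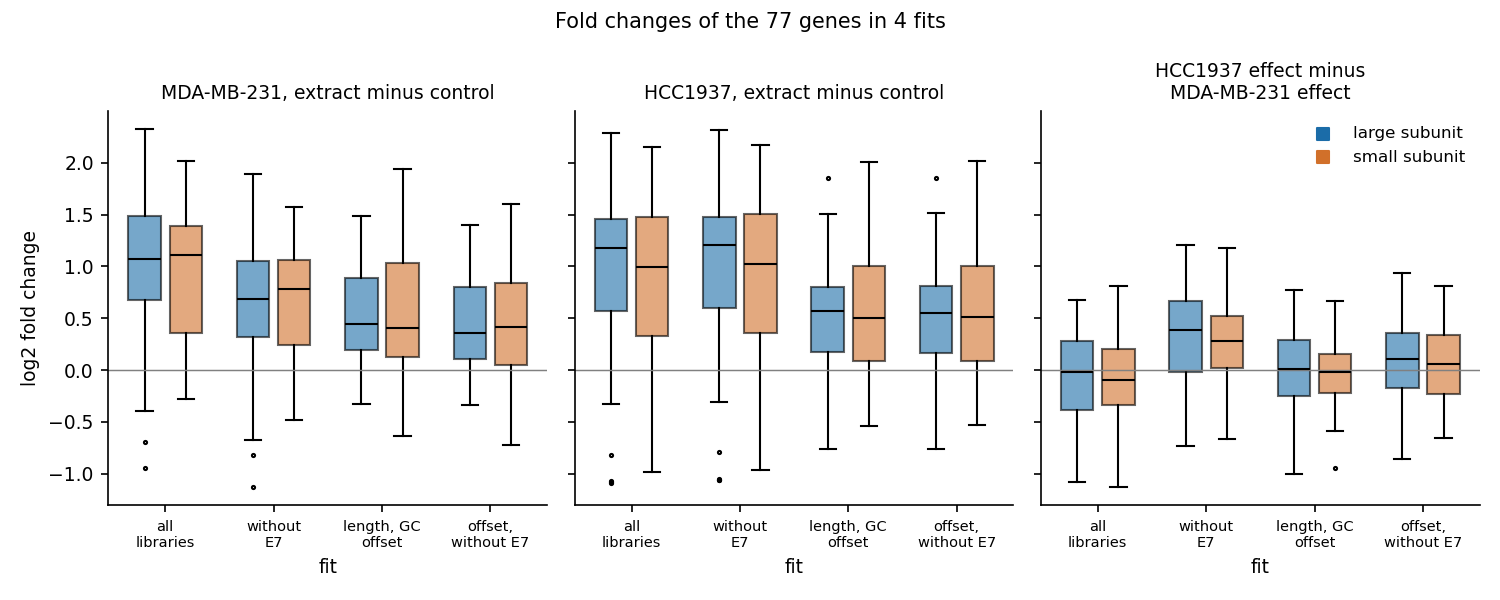
Boxes give the median and quartiles of the log2 fold changes over members (whiskers to 1.5 times the box, points beyond), by subunit and fit, for the effect in each line and their difference. Leaving out E7 lowered the MDA-MB-231 median from 1.09 to 0.74 and raised the difference from -0.03 to 0.35, and the offset for length and GC content lowered the HCC1937 median from 1.13 to 0.51.

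Fold changes of members followed the GC content of their transcripts. Of the 13 members with a GC content up to 42%, 6 rose and 2 fell in MDA-MB-231, where 7.61% of all genes of that class were higher and 68.7% lower, and 2 rose and 6 fell in HCC1937, beside 2.73% and 78.6%. All 23 members between 50 and 58% rose in both lines, beside 46.2% of all genes of the class in MDA-MB-231 and 51.8% in HCC1937. Over 58% all 15 rose in MDA-MB-231, beside 49.98%, and 14 in HCC1937, beside 55.7%, MRPL23 not passing. With all libraries in the fit the called falls were all in the class up to 42%. Without E7 that class held 6 falls in each line, and 3 more lay between 42 and 50%: MRPS22, MRPS25 and MRPS30 in MDA-MB-231, and MRPL13, MRPL39 and MRPS9, named after their values were seen, in HCC1937. The median log2 fold change from the lowest to the highest GC class was 0.21, 0.75, 1.08 and 1.44 in MDA-MB-231, 0.12, 0.51, 0.83 and 1.00 there without E7, and 0.094, 0.88, 1.38 and 1.70 in HCC1937. Over all genes tested it was -1.07, -0.06, 0.41 and 0.52 in MDA-MB-231 and -1.59, -0.37, 0.50 and 0.62 in HCC1937. Members thus lay above the median of all genes in each class, though the classes were not matched for transcript length. Over the 77 members, Spearman's rho of GC content with log2 fold change came to 0.59 for MDA-MB-231 and 0.78 for HCC1937, in points which share libraries and are not replicates, and 0.47 and 0.55 over all genes. For transcript length rho was -0.29 and -0.32 over members, and -0.39 and -0.37 over all genes. Member transcripts were short, with a median of 1532 nt against 3377 nt for all genes tested, and had a usual GC content, 48.9% against 49.3%. The part of RNA quality or library preparation in this was not tested.

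**Figure D5:**
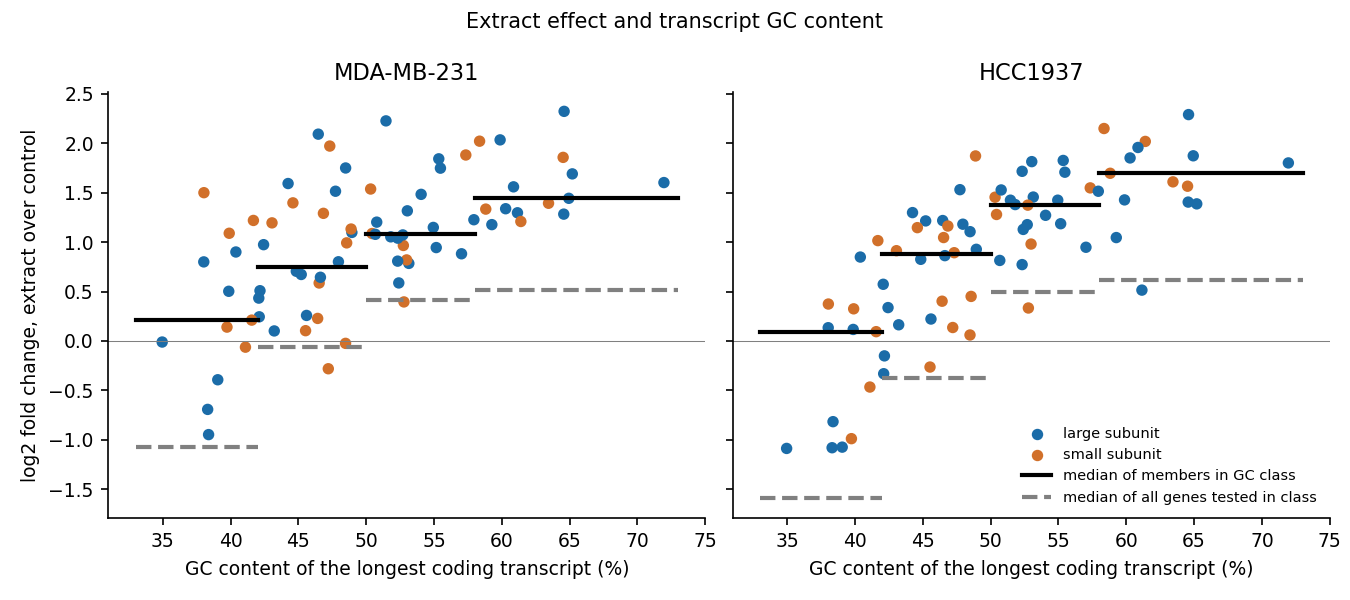
Log2 fold change of each member against the GC content of its longest coding transcript, in both lines, with the median of members (black) and of all genes tested (dashed grey) in each GC class. Members run from 0.21 to 1.44 in MDA-MB-231 and from 0.094 to 1.70 in HCC1937 across class medians, and in this fit, with all libraries, the called falls are all in members with a GC content up to 42%.

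An offset was fitted across genes to take out the length and GC trend of each library. With it, 53 members were higher and 7 lower in MDA-MB-231, beside 32.6% and 32.5% of all genes, with a median of 0.42. In HCC1937 53 were higher and 8 lower, beside 28.4% and 38.6%, with a median of 0.51. Rises were thus nearly as frequent with this form of the offset, and smaller in the median. Spearman's rho of transcript length with log2 fold change was then 0.021 in MDA-MB-231 and 0.0097 in HCC1937 over all genes. Over members it was 0.26 and 0.46, so that among them the length trend was reversed and not removed. A further form, here called centred on the mean, used the same surface but library totals not scaled by TMM. It thus also changed the scale between libraries, and the parts of surface and scale were not separated. With it, 33 were higher and 13 lower in MDA-MB-231, beside 20% and 41.2% of all genes, with a median of 0.14. In HCC1937 30 were higher and 19 lower, beside 14.9% and 51.6%, with a median of 0.17. The median of all genes tested was then -0.26 in MDA-MB-231 and -0.50 in HCC1937. The values that follow are from the first form of the offset, not the one centred on the mean. MRPL12 remained called higher, at 1.32 and 1.08, and MRPS12 at 1.07 and 0.99. Neither led its subunit any longer. MRPL22, at 1.46 and 1.85, lay above MRPL12, and MRPS23, at 1.94 and 1.79, above MRPS12, both named after their values were seen. With that first form the shared falls turned: MRPL19 was called higher at 0.22 and 0.26, and MRPL42 at 1.12 and 1.23. MRPL42 has an annotated transcript of 15582 nt that may not be the one these cells use. MRPL50 was called higher in both lines, at 1.24 and 0.58. The annotated transcripts of MRPL19 and MRPL50 have 3479 and 3332 nt, where the median member has 1532 nt. MRPS31 and MRPL1 stayed lower in HCC1937, at -0.42 and -0.41. Of the rises, 48 of 61 in MDA-MB-231 and 44 of 55 in HCC1937 were called higher with the offset. Those that were not had the smallest adjusted p in MRPL49 (0.15 with offset) and MRPL45 (0.22), the protein that ties the ribosome to the inner membrane, in MDA-MB-231, and in MRPL16 (-0.025) in HCC1937. MRPS5, named after its values were seen, turned from higher to lower in both lines, to -0.30 and -0.51.

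Between the untreated lines the members had no common direction. In HCC1937 19 members were higher and 21 lower than in MDA-MB-231, where 38.7% of all genes tested were higher and 36.7% lower, and the median log2 difference was -0.06. MRPL55 was at 12.4, 11.6 and 12.8 CPM in untreated MDA-MB-231 and 58.5, 53.5 and 57.3 in untreated HCC1937, a difference of 2.20 (adjusted p = 0.000102). MRPS21 was at 10.1, 9.04 and 9.61 and 36.0, 34.4 and 39.5 CPM, a difference of 1.93 (adjusted p = 9.94e-05), and MRPS18C differed by 1.66 (adjusted p = 6.08e-05). All 3 were higher in each HCC1937 control than in each MDA-MB-231 control. MRPL23, a protein near the tunnel exit, was at 28.2, 25.3 and 22.8 CPM in untreated MDA-MB-231 and 2.19, 1.15 and 2.39 in untreated HCC1937, from 160 counts over the 3 libraries, a difference of -3.74 ± 0.43 (SE, adjusted p = 7.32e-06). With extract it stayed low in HCC1937, at 2.23, 2.89 and 3.02 CPM. MRPL19 was lower in HCC1937 by -1.61 (adjusted p = 1.51e-07) and MRPL42 by -1.37 (adjusted p = 1.64e-06).

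Leaving out E7 also moved counts in comparisons that do not hold it, since 1 model was fitted to all libraries. In HCC1937 67 members were then higher and 9 lower, beside 38.1% and 43.3% of all genes tested. Between the untreated lines 28 were higher and 35 lower in HCC1937, beside 43.4% in either direction. With the offset and all libraries, 13 members had a higher and 16 a lower effect in HCC1937, beside 15.3% and 24.8% of all genes, and 32 were higher and 27 lower in untreated HCC1937, beside 42.3% and 39.2%. With both changes, 55 members were higher and 8 lower in MDA-MB-231, beside 35.6% and 35.3%, and 57 higher and 11 lower in HCC1937, beside 32.6% and 43.3%. The effect was then higher in HCC1937 in 30 members and lower in 19, beside 22.6% and 32.7%, and 38 were higher and 31 lower in untreated HCC1937, beside 45.4% and 42.4%. Rises of members thus outnumbered falls with extract in both lines in all 4 fits, and in the untreated lines neither direction held in all of them.

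Per kilobase of transcript, which allows levels of different genes to be compared, the members spanned 69.6-fold as means of the 4 groups, around a median of 43.6 CPM per kb. MRPL12 was highest at 193, followed by MRPS24, which sits where messenger RNA enters, at 161, and MRPL37, a mitochondria-specific protein, at 127. MRPL42 had the lowest mean at 2.77, after MRPL50 at 5.26 and MRPS33 at 5.49, with lengths taken from the longest annotated transcript. For MRPL42 that transcript has 15582 nt and may not be the one these cells use. Its place as the lowest, and with it the 69.6-fold span, rests on that length. The order at the low end differed between groups: MRPS17 was lowest in untreated MDA-MB-231, at 2.97 against 5.22 for MRPL42, and MRPL23 was next to the lowest in both HCC1937 groups, at 2.08 without and 2.95 with extract. MRPL12 ranked 3 in untreated MDA-MB-231, 6 in untreated HCC1937 and 1 in both extract groups. The subunits had similar medians without extract, 24.6 CPM per kb for the large and 27.6 for the small in MDA-MB-231, and 26.6 and 25.5 in HCC1937. With extract they were 64.6 and 52.4 in MDA-MB-231, 46.6 and 42.7 there without E7, and 57.2 and 39.7 in HCC1937.

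Some values are uncertain by the genes' copies. There are 70 annotated pseudogenes named for 33 of the members, up to 8 for one of them. The median log2 fold change of members with such copies came to 0.97 for MDA-MB-231 and 0.93 for HCC1937, against 1.17 and 1.29 for the other 44. Exon sequence is shared with another protein-coding gene in 34 members, 44.2% against 30.5% of genes tested, in 21 on the opposite strand alone, and whether counting used strand is not given in the sources used here. MRPL12 and MRPS12 are among the 34. Within 1000 bp of the start, 17 members (22.1%) have a gene running the other way, against 9.16% of genes tested.

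Genes of other steps of mitochondrial translation are given by counts, to be read beside the 33% of all genes tested that were higher and 32.8% lower in MDA-MB-231, 37.3% and 37.2% there without E7, and 32.7% and 39.1% in HCC1937. Without E7 the shares in HCC1937 were 38.1% and 43.3%. With the length and GC offset they were 32.6% and 32.5% in MDA-MB-231 and 28.4% and 38.6% in HCC1937. Of 5 proteins of the mitochondrial ribosome that carry other symbols, 4 rose and 1 fell in each line, also without E7. DAP3, a GTP-binding small subunit protein known from cell death studies, was at 119, 118 and 113 CPM in untreated MDA-MB-231 and 294, 201 and 203 in E7, E8 and E9, with a log2 fold change of 1.00, 0.80 without E7, and 0.80 in HCC1937. AURKAIP1 rose by log2 1.74 in MDA-MB-231, 1.22 without E7, and 1.77 in HCC1937, and GADD45GIP1 by 2.07 in HCC1937. PTCD3, a pentatricopeptide repeat protein of the small subunit, fell, with -0.59 and -0.84, and with the offset it passed in neither line, at 0.31 and 0.17.

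Of 27 assembly and ribosomal RNA modification factors, 20 rose and 2 fell in MDA-MB-231, with a median log2 fold change of 0.96, and 19 rose and 4 fell in HCC1937, with a median of 1.09. Without E7, 20 were higher and 4 lower in MDA-MB-231, with a median of 0.79. With the length and GC offset, 19 were higher and 3 lower in MDA-MB-231, with a median of 0.52. For HCC1937 the counts were then 16 higher and 5 lower, with a median of 0.38. DDX28, a helicase of large subunit assembly, went from 1.13, 0.827 and 0.754 CPM to 13.9, 14.2 and 14.1 in MDA-MB-231, a log2 fold change of 3.95, and all extract libraries lay above all controls. MRM2, a methyltransferase of ribosomal RNA, rose by log2 2.29 in MDA-MB-231, and DHX30, a helicase, by 1.62 and MRM3, a methyltransferase, by 1.59 in HCC1937. METTL15, a methyltransferase of the small subunit RNA, fell in both lines, with -1.66 and -2.17. FASTKD2 fell in MDA-MB-231, with -0.42, and GTPBP10 in HCC1937, with -1.68, and both were called higher with the offset.

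Of 17 translation factors, 8 rose and 6 fell in MDA-MB-231, with a median of 0.07, and 6 rose and 8 fell in HCC1937, with a median of -0.20. Without E7, 8 were higher and 8 lower in MDA-MB-231, with a median of 0.068. With all libraries and no offset, the share of higher genes was near that of all genes in HCC1937. With the length and GC offset, 10 were higher and 5 lower in MDA-MB-231, with a median of 0.30. For HCC1937 the counts were then 9 higher and 4 lower, with a median of 0.32. TUFM, the elongation factor that brings transfer RNA, was at 201, 196 and 209 CPM without and 627, 621 and 615 with extract in HCC1937, a log2 fold change of 1.62. TACO1, an activator of COX1 translation, rose by log2 1.74 in HCC1937. MTRFR, a release factor for stalled ribosomes, rose by 1.65 and PDF, the peptide deformylase, by 1.98 in MDA-MB-231. LRPPRC, which stabilises mitochondrial messenger RNA, was at 230.1, 252 and 243 CPM in untreated MDA-MB-231 and 69.5, 81.4 and 85.6 in E7, E8 and E9, and its log2 fold changes were -1.61 and -1.89 in the lines. GUF1, a GTPase of translation, fell in both, with -1.1 and -1.43. With the offset GUF1 passed in neither line, at -0.12 in each, while LRPPRC stayed lower, at -0.69 and -0.79.

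Of 14 genes of mitochondrial transcription and its regulators, 7 rose and 3 fell in MDA-MB-231, with a median of 0.38, and 5 rose and 7 fell in HCC1937, with a median of -0.55. Without E7, 9 were higher and 3 lower in MDA-MB-231, with a median of 0.40. The 5 of 14 in HCC1937 are near the share of all genes. With the length and GC offset, 10 were higher and 2 lower in MDA-MB-231, with a median of 0.59. For HCC1937 the counts were then 6 higher and 2 lower, with a median of 0.23. POLRMT, the mitochondrial RNA polymerase, rose by log2 1.32 in MDA-MB-231 and 1.67 in HCC1937, and ESRRA, a nuclear receptor of respiratory genes, by 0.80 and 1.33. With the offset ESRRA did not pass in MDA-MB-231, at 0.13 (adjusted p = 0.192), and was called higher in HCC1937, at 0.45. GABPA, the DNA-binding subunit of GABP, was at 21.8, 21.3 and 22.7 CPM in untreated MDA-MB-231 and 4.41, 4.18 and 3.80 in E7, E8 and E9, and at 39.6, 43.7 and 44.2 without and 7.08, 9.28 and 6.64 with extract in HCC1937. It fell in both lines, with -2.41 and -2.47, and no extract library came near a control. With the offset GABPA was still called lower, by less, at -0.83 and -0.66. TFAM, which packs mitochondrial DNA, fell with -0.99 and -1.77, and with the offset it was called higher in MDA-MB-231, at 0.39, and did not pass in HCC1937. Of the 13 proteins that mitochondrial DNA encodes, 11 rose in MDA-MB-231 and 6 in HCC1937, and none fell. Their median log2 fold change was 1.88 in MDA-MB-231, 1.26 without E7, and 0.60 in HCC1937. Without E7, 11 were higher and 2 lower in MDA-MB-231, and all 13 were higher in HCC1937, with a median of 0.63. With the offset, 11 were higher and 1 lower in MDA-MB-231, with a median of 1.13. For HCC1937 the offset gave 5 higher and 0 lower, with a median of 0.18. CYTB had the smallest adjusted p after ND5 in MDA-MB-231, with log2 fold changes of 3.82 and 3.01 without E7. ND5 had 1.42 in MDA-MB-231 and 0.57 in HCC1937.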

How the data were processed

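The authors deposited expected counts (estimated reads per gene), made with FastQC 0.12.1, fastp 0.23.4 and Salmon 1.10.3 on GRCh38, per the submitters' processing notes, which also name DESeq2 and R 4.4.1. For annotation release, the step from transcripts to genes and the strand setting, the sources used here give nothing. Values not whole (52.8%) were rounded, by at most 0.5.

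Low genes were dropped by filterByExpr with the groups given in edgeR 4.0.16 (R 4.3.3), libraries scaled by TMM, and 1 quasi-likelihood model fitted to all 12 libraries of 3 per group. Adjusted p-values are Benjamini-Hochberg over 14133 genes, with a threshold of 0.05, and SE is the size of the log2 fold change over the square root of F. Fold changes are extract minus control per line, HCC1937 effect minus MDA-MB-231 effect, and HCC1937 control minus MDA-MB-231 control.

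Transcript length and GC content come from the longest protein-coding transcript in GENCODE release 29, for 99.4% of genes tested and all 77 members. The offset is a smooth surface of length and GC per library (mgcv 1.9.3), with TMM recomputed on the corrected counts. The form called centred on the mean uses this surface with library totals not scaled by TMM. Its form was settled after seeing the data and on simulated data. Alternatives were DESeq2 1.42.0, its size factors, limma 3.58.1 with quality weights, no filter, only the 6 libraries compared, no mitochondrially encoded genes, the offset, and each library left out.

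Named are, among called members with a mean of at least 5 CPM and groups that do not overlap, up to 8 rises and 6 falls per line, by size. Also named are the 4 largest differences between the lines and 3 between untreated lines in each direction, the 3 highest and lowest per kb, members of known role, up to 4 per line whose call changed without E7 or with the offset, and in each other list the 2 smallest p per direction. Members and lists were chosen with earlier results of these data known.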

Additional observations from a re-analysis of the deposited data

Results flagged for a closer look

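The effect of the extract differed between the lines, by edgeR's test of the difference itself, in 8 members. Of all genes tested, 11.5% were called higher and 20.6% lower for this difference. The number of members called rested on E7, as given above. As log2 fold change in HCC1937 minus that in MDA-MB-231, the difference was 0.81 for MRPS2, 0.67 for MRPL49, 0.46 for MRPS27 and 0.41 for MRPS18B. It was -1.13 for MRPS31, -1.13 for MRPS18C, -1.08 for MRPL50 and -0.64 for MRPL3. Of the 8, MRPS18B was not called for the difference with the length and GC offset, where its difference was 0.24 (adjusted p = 0.119), and the other 7 were. Line, medium and dose cannot be told apart in these differences.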

How the results depend on the processing

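Of 115 fold changes of named members in the 4 comparisons, the filter on low counts and leaving out mitochondrially encoded genes changed no direction and no call, and leaving out E8 or E9 neither. Leaving out any 1 of the 9 libraries of the other groups ended 7 to 10 calls and turned none, and leaving out E7 ended 1, added 8 and turned 2. DESeq2 ended 1 call and added 1, and its size factors ended 4 and added 1. With the offset 92 of 115 kept direction and call. The cause of these changes was not tested.

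Over all 77 members, 13 turned sign with the offset in each line, and 6 without E7 in MDA-MB-231 and none in HCC1937. Of the named members called in either fit, those that turned with the offset in MDA-MB-231 were MRPL19 0.22, MRPL42 1.12, MRPL50 1.24, MRPL53 -0.049 and MRPS30 -0.26, and in HCC1937 MRPL16 -0.025, MRPL19 0.26, MRPL23 -0.76, MRPL42 1.23, MRPL50 0.58, MRPL53 -0.16, MRPS22 -0.52 and MRPS35 0.087. With the offset and without E7 they were MRPL19 0.16, MRPL42 0.78, MRPL50 1.05, MRPL53 -0.30 and MRPS30 -0.39 in MDA-MB-231, and MRPL16 -0.016, MRPL19 0.26, MRPL23 -0.77, MRPL42 1.25, MRPL50 0.59, MRPL53 -0.15, MRPS21 -0.15, MRPS22 -0.52 and MRPS35 0.088 in HCC1937. The offset centred on the mean, with library totals not scaled by TMM, was added like the previous fit after seeing the data. The median of all genes tested moved with it to -0.26 in MDA-MB-231 and -0.50 in HCC1937. Sign turned in MDA-MB-231 for MRPL23 -0.060, MRPL42 0.81, MRPL45 -0.031, MRPL49 -0.10, MRPL50 0.94, MRPL53 -0.36 and MRPS30 -0.55. In HCC1937 sign turned for MRPL16 -0.37, MRPL23 -1.11, MRPL36 -0.25, MRPL42 0.88, MRPL50 0.23, MRPL53 -0.51, MRPL55 -0.041, MRPS21 -0.51, MRPS22 -0.87 and MRPS30 -0.28. Without E7 alone, MRPS30 -0.13 and MRPS31 -0.30 were the named and called members that turned in MDA-MB-231, and with quality weights in limma MRPS30 -0.14. With 1 library left out at a time the values ran from -0.13 to 0.39 in MRPS30 and from -0.30 to 0.38 in MRPS31.

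In MDA-MB-231, members called higher were 33 with the mean-centred offset (20% of all genes). Those called lower were 8 with limma weights (39.0% of all genes), 7 with the offset (32.5%), 8 with the offset without E7 (35.3%) and 13 with the mean-centred offset (41.2%). The median log2 fold change was 0.42 with the offset, 0.40 with the offset without E7 and 0.14 with the mean-centred offset. Leaving out 1 library gave 58 to 63 higher, 2 to 9 lower and a median of 0.74 to 1.27. The 9 lower and the median of 0.74 came without E7, where 37.2% of all genes were lower. Each other fit with 1 library left out gave 2 lower. For those other fits, here and below, shares of all genes are not given, so their counts show only how calls moved.

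In HCC1937, 30 members were called higher and 19 lower with the mean-centred offset (14.9% and 51.6% of all genes), and 11 lower with the offset without E7 (43.3%). The median was 1.22 with DESeq2 and with its size factors, 1.18 with only the 6 libraries compared, 0.51 with the offset, 0.52 with the offset without E7 and 0.17 with the mean-centred offset. Leaving out 1 library gave 53 to 67 higher, 6 to 9 lower and a median of 1.1 to 1.19. The 67 higher and 9 lower came without E7, beside 38.1% and 43.3% of all genes.

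For the difference between the lines, 10 members were higher with DESeq2 (17.3% of all genes), 47 with limma weights (25.4%), 13 with the offset (15.3%), 30 with the offset without E7 (22.6%) and 7 with the mean-centred offset (10.7%). Lower effects numbered 2 with DESeq2's size factors (16.4% of all genes), 10 with limma weights (35.6%), 16 with the offset (24.8%), 19 with the offset without E7 (32.7%) and 15 with the mean-centred offset (24.2%). Leaving out 1 library gave 3 to 49 higher and 1 to 10 lower. The fit without E7 gave the 49, where 24.7% of all genes were higher and 33.3% lower. Apart from E7, the lower count was 10 without E8, 7 without E9, 1 without E2 or E31 and 2 without E27, E32 or E33.

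For the untreated lines, 29 members were higher and 33 lower with limma weights (45.3% and 42.9% of all genes), 32 higher with the offset (42.3%), 38 higher with the offset without E7 (45.4%) and 36 lower with only the 6 libraries compared (44.3%). Leaving out 1 library gave 15 to 28 higher and 17 to 35 lower, both upper ends without E7, beside 43.4% of all genes in either direction.

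No paired analysis was possible because the libraries of different groups share no replicate number. At these totals, 3 counts are worth 0.0990 to 0.213 CPM, and MRPL23 in HCC1937, at 160 and 207 counts over 3 libraries, is the member nearest that limit. These floors cover counting error only.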
